A study of Mus musculus with 9 samples.

Results

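The ubiquitin-conjugating enzymes (E2s) with symbols beginning Ube2, and the ubiquitin-specific proteases with symbols beginning Usp and a digit, were compared between 2 groups of mouse lung endothelial cell libraries. The members were taken by symbol, with Usp18 left out, and they number 66 of the 9277 genes in the table, 27 Ube2 and 39 Usp symbols. The symbol rule also takes in Ube2d-ps, a pseudogene of the Ube2d family, and Usp6nl, which encodes a GTPase-activating protein for Rab proteins and not a protease. The groups were Tie1-CR (n = 5 libraries), from mice whose Tie1 receptor resists the proteolytic cleavage that follows an inflammatory insult, and Tie1-WT (n = 4 libraries), from wild type mice. Tie1 is an orphan receptor tyrosine kinase of endothelium that acts with the angiopoietin receptor Tek. The names of all 9 libraries carry PBS, so neither group is described as having met an inflammatory stimulus. Neither the age and sex of the mice nor the way the cells were isolated is given in the sources used here. The labels do not say whether each library came from its own mouse, and p-values therefore reflect the spread among the libraries, which may be technical. The running numbers in the library names follow genotype, and the labels do not say whether they give an order of handling. If they do, that order and the genotype cannot be told apart.

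Ubiquitin is a small protein that is attached to other proteins by a relay of 3 enzyme classes. An activating enzyme (E1) charges it, a conjugating enzyme (E2) carries it, and a ligase (E3) selects the substrate, while specific proteases take it off again and edit or recycle chains. The type of chain decides the outcome: some linkages send a protein to the proteasome, others act in receptor sorting, DNA repair or inflammatory signalling. In endothelium this system is known for the turnover of surface receptors and junction proteins and for the control of NF-κB.

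Values are gene counts scaled to the total of each library (CPM) as deposited, and differences are Tie1-CR minus Tie1-WT on the scale of log2(CPM + 1), which understates the change of low genes. A gene was called where the Benjamini-Hochberg adjusted p of the limma fit over all 9277 genes was below 0.05. Read totals were inferred from the step shared by the values of each library. By this inference 38208696 to 54408116 reads were counted per library, so a gene at 10 CPM was read 382 to 544 times. Tie1 itself averaged 2433 ± 143 CPM in Tie1-CR libraries and 2136 ± 43.0 CPM in Tie1-WT libraries (SD, n = 5 and 4). All Tie1-CR libraries were above all Tie1-WT libraries for Tie1, but it was not called (log2 difference 0.19, adjusted p = 0.107). The level of Tie1 does not check the genotype, because the labels describe a change in cleavage of the protein. All 10 endothelial markers examined were in the table, with sums of 22580 to 23470 CPM in Tie1-CR libraries and 20960 to 21610 CPM in Tie1-WT libraries. Of these only Erg, an endothelial transcription factor, was called, and it was lower, at 37.5 ± 1.77 CPM in Tie1-CR and 50.3 ± 3.61 CPM in Tie1-WT libraries (log2 difference -0.41, adjusted p = 0.00516). Markers of type 2 pneumocytes (5 of 8 in the table) summed to 288 to 627 CPM in Tie1-CR and 115 to 465 CPM in Tie1-WT libraries. Airway markers (4 of 6) summed to 48 to 81.4 CPM in Tie1-CR and 12.6 to 38.2 CPM in Tie1-WT libraries. Sftpd of type 2 pneumocytes was called higher (log2 difference 1.14, adjusted p = 0.0440). So were the airway markers Cyp2f2 (1.14, adjusted p = 0.0428) and Cbr2 (1.31, adjusted p = 0.0232), and 0 markers of these cells were called lower. For leukocytes, 2 of 10 markers were in the table and Ptprc was not, and their differences had opposite signs. The macrophage marker Cd68 was called lower, at 5.30 ± 1.05 CPM in Tie1-CR and 10.7 ± 1.30 CPM in Tie1-WT libraries (log2 difference -0.90, adjusted p = 0.00640). Lyz2, which type 2 pneumocytes also make, was at 55.1 to 113 CPM in Tie1-CR and 19.7 to 68 CPM in Tie1-WT libraries (log2 difference 1.11, adjusted p = 0.0669). It made up most of their sum, which was 60.2 to 118 CPM in Tie1-CR and 30.6 to 76.9 CPM in Tie1-WT libraries. The part of these other cells in the results below was not tested.

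Ube2s, the E2 that extends K11-linked chains on substrates of the anaphase-promoting complex in mitosis, and Usp46, a protease activated by the WD-repeat proteins Wdr48 and Wdr20, were lower in Tie1-CR libraries. They were 2 of 66 members called lower (3.03%), against 2.77% of all genes, and 0 members were called higher, against 1.28% of all genes. In either direction 4.05% of all genes were called, so the share of members called was near that of the table. The balance over all genes depended on scaling, with 119 called higher and 257 lower as deposited, 182 and 190 with TMM factors, and 183 and 190 with quantile normalization. At an unadjusted p below 0.05 there were 18 of 66 members (27.3%), 16 lower and 2 higher (Usp19 and Usp22), against 22.3% of all genes. The groups of libraries did not overlap for 10 members (15.2%), against 10.5% of all genes. All Tie1-CR libraries lay below all Tie1-WT libraries for 9 of those members, against 6.74% of all genes, and the remaining 1 was Usp19, with all Tie1-CR libraries above. Since these are sums over cells, fewer cells of a type and less RNA per cell cannot be told apart.

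The stretch of 120 bases before the RefSeq start of Usp46 is shown because GC boxes repeat in it close to the start. It lies on the minus strand of GRCm38.p6 and is written 5′ to 3′ on the gene's strand, with capitals marking matches to GGGCGG (the GC box) on either strand. TATAAA (the element read by the TATA-binding protein), TGACGT (the core of CRE sites) and CCAAT were searched in it as well.
Usp46, chr5:74068412-74068531: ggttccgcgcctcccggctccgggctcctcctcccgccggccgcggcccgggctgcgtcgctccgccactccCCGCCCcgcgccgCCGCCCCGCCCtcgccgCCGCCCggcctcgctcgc
The stretch holds 4 matches to GGGCGG on the opposite strand, of which the middle pair overlap by 1 base, at -48 to -43, -35 to -30, -30 to -25 and -18 to -13 from the start, and none to the other motifs. The GENCODE span of Usp46 begins slightly upstream of the RefSeq start, so the bases next to the start lie within it. For Ube2s, GENCODE places the start well upstream of RefSeq, and no stretch is shown. Over windows from 250 bases before to 50 bases after the start, RefSeq promoters were matched by symbol for 51 members and for 7159 genes of the table. TATAAA was found in 5 of 51 member promoters (9.80%) and in 8.16% of all of them, and GGGCGG in 42 (82.4%) and in 72.5%. CCAAT was found in 9 (17.6%) and in 42.1%, and TGACGT in 9 (17.6%) and in 14.4%. The longer motif GCGGGGGCG of early growth response factors was found in 8 (15.7%) and in 6.76%. Among the other motifs searched, TGANTCA (AP-1) was found in 3 (5.88%) and in 5.88%, TTCNNNGAA (STAT) in 2 (3.92%) and in 8.35%. GAAANNGAA (interferon-stimulated elements) was found in 2 (3.92%) and in 8.70%, and CACGTG (E-box) in 7 (13.7%) and in 12.2%. These are matches of letters and do not show binding.

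Ube2s (chromosome 7, 4794546 to 4812590, minus strand, in the GENCODE annotation of GRCm38) was at 16.1, 19.6, 15.9, 18.0 and 16.8 CPM in Tie1-CR libraries 1 to 5, and at 23.4, 23.3, 24.9 and 20.8 CPM in Tie1-WT libraries 1 to 4. Every Tie1-CR library lay below every Tie1-WT library. The means were 17.3 ± 1.55 CPM in Tie1-CR and 23.1 ± 1.71 CPM in Tie1-WT (SD), a log2 difference of -0.40 (SE 0.076, limma adjusted p = 0.0190), or 1.32-fold lower in Tie1-CR. The annotated span of Ube2s overlaps Rpl28 on the opposite strand, which has no row in the table, and whether counting used strand is not given. Without Tie1-WT library 1, 2 or 3 the call was lost (adjusted p = 0.0713, 0.0575 and 0.0563). Other genes of dividing cells were scarce: 3 of 11 cell cycle genes were in the table, and Mki67, Top2a and Cdk1 were not. Pcna, the sliding clamp of DNA replication, was at 16.4 ± 0.852 CPM in Tie1-CR and 22.1 ± 0.862 CPM in Tie1-WT libraries, a log2 difference of -0.40 (adjusted p = 0.00629). Mcm2 (log2 difference -0.21, adjusted p = 0.0928) and Mcm5 (-0.29, adjusted p = 0.1285) were not called. The sum of the 3 cell cycle genes was 51.6 to 57.3 CPM in Tie1-CR and 63.3 to 72.2 CPM in Tie1-WT libraries. Whether Ube2s moved with the share of dividing cells was not tested.

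Usp46 (chromosome 5, 73998453 to 74068431, minus strand) was at 33.6, 35.1, 38.9, 34.7 and 44.2 CPM in Tie1-CR libraries, and at 45.9, 51.7, 48.5 and 45.7 CPM in Tie1-WT libraries. The groups did not overlap, although Tie1-CR library 5 came close to the lowest Tie1-WT library. Usp46os1 and Usp46os2 are annotated on the opposite strand, and reads from them cannot be told apart from those of Usp46 if strand was not used. The means were 37.3 ± 4.33 CPM in Tie1-CR and 47.9 ± 2.82 CPM in Tie1-WT (SD), a log2 difference of -0.36 (SE 0.079, limma adjusted p = 0.0315), or 1.28-fold lower in Tie1-CR. The call was lost without Tie1-CR library 1, 2 or 4 (adjusted p = 0.0523, 0.0556 and 0.0729), without Tie1-WT library 1, 2 or 3 (0.0847, 0.0936 and 0.0758), and after correction for GC content and transcript length (log2 difference -0.27, adjusted p = 0.0689). Usp12, the closest relative of Usp46, was at 42.8 to 51.1 CPM in Tie1-CR and 50.6 to 54.1 CPM in Tie1-WT libraries (log2 difference -0.12, adjusted p = 0.246). Usp1, which shares the partner Wdr48 and removes ubiquitin from Pcna and Fancd2, was at 25.0 to 28.3 CPM in Tie1-CR and 27.7 to 29.6 CPM in Tie1-WT libraries (log2 difference -0.09, adjusted p = 0.308). The partners themselves were not called. Wdr48 averaged 88.7 ± 3.94 CPM in Tie1-CR and 88.4 ± 2.06 CPM in Tie1-WT libraries, and Wdr20 averaged 41.9 ± 3.38 CPM in Tie1-CR and 43.7 ± 2.22 CPM in Tie1-WT libraries.

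**Figure D1:**
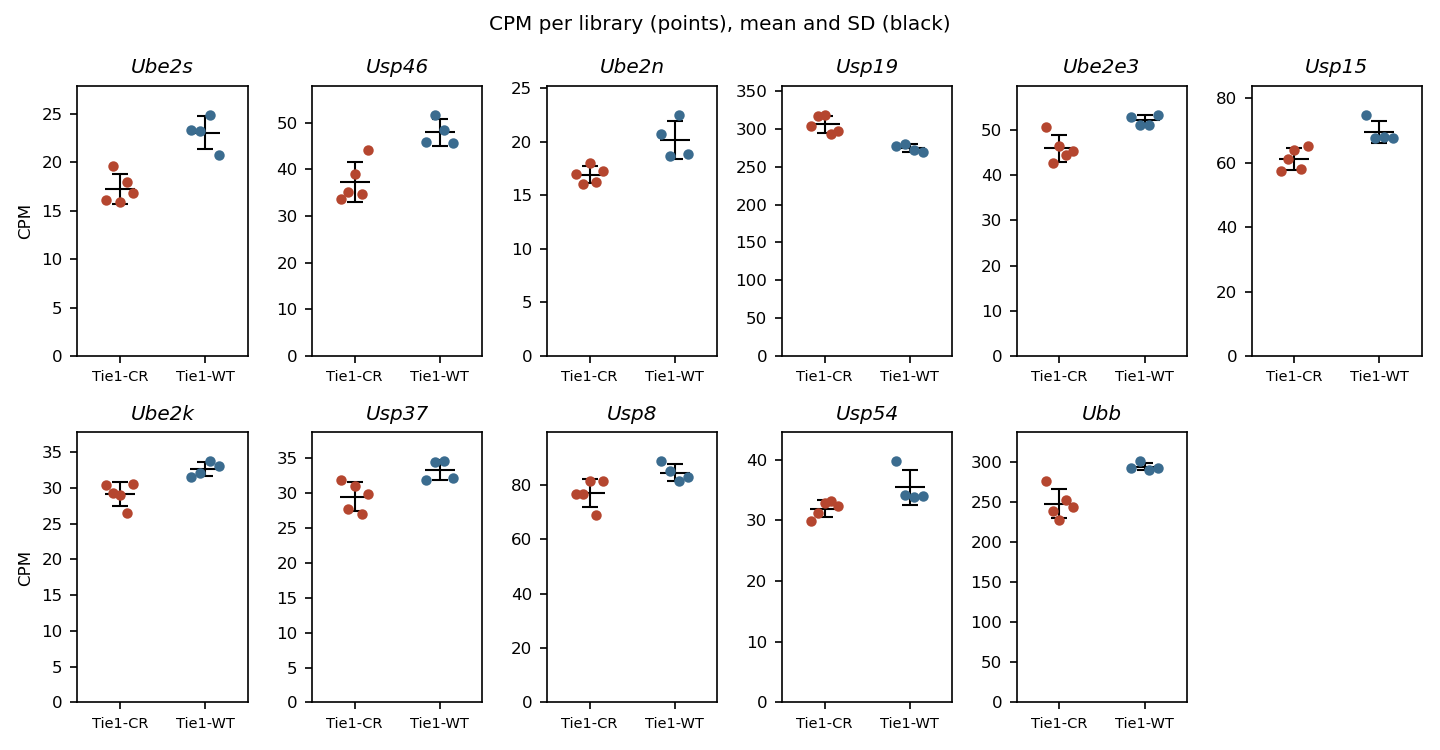
CPM of the 10 members whose groups did not overlap, ordered by p, and of the ubiquitin gene Ubb, in each Tie1-CR (n = 5) and Tie1-WT (n = 4) library, with the mean and SD in black and axes from 0. Usp19 is the 1 member shown with all Tie1-CR libraries above, at 293 to 319 CPM against 269 to 280 CPM in Tie1-WT libraries.

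Among the Ube2d and Ube2e enzymes, which serve a wide range of RING-type ligases, 0 of 5 members were called. Of the 5, 3 had an unadjusted p below 0.05, and 4 had differences below 0. For this and the groups below, the shares over all genes were 4.05% called, 22.3% at an unadjusted p below 0.05 and 58.5% below 0. Ube2e3 was at 50.7, 42.8, 46.5, 44.4 and 45.4 CPM in Tie1-CR libraries and at 52.9, 51.2, 51.2 and 53.4 CPM in Tie1-WT libraries. These groups did not overlap, and the log2 difference of -0.18 (SE 0.053) had an adjusted p of 0.0763. It was called with library weights (0.0307) and without Tie1-CR library 1 (-0.22, adjusted p = 0.0316). It was not called with TMM scaling (adjusted p = 0.122), quantile normalization (0.139) or a block for replicate number (0.19). After the GC and length correction the log2 difference of Ube2e3 was -0.089 (adjusted p = 0.272). Ube2d3 had the highest CPM of the family, at 132 to 154 CPM in Tie1-CR and 150 to 163 CPM in Tie1-WT libraries (log2 difference -0.14, adjusted p = 0.162). Ube2d2a was at 22.0 to 25.1 CPM in Tie1-CR and 24.1 to 28.5 CPM in Tie1-WT libraries (log2 difference -0.15, adjusted p = 0.197). Ube2d1 differed from its relatives in sign, at 40.2 ± 2.12 CPM in Tie1-CR and 39.7 ± 0.524 CPM in Tie1-WT libraries (log2 difference 0.02, 95% interval -0.09 to 0.13). That the members of this family differ from each other in response was not tested. The pseudogene Ube2d-ps was at 8.46 to 10.4 CPM in Tie1-CR and 9.34 to 11.0 CPM in Tie1-WT libraries (log2 difference -0.07, adjusted p = 0.664).

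Ube2n, the conjugase dedicated to K63-linked chains, was at 17.0, 16.1, 18.0, 16.3 and 17.3 CPM in Tie1-CR libraries, and at 20.7, 18.6, 22.5 and 18.9 CPM in Tie1-WT libraries. All Tie1-CR libraries were below all Tie1-WT libraries, but the log2 difference of -0.24 (SE 0.069) did not pass the threshold (adjusted p = 0.0742). Its catalytically inactive partners Ube2v1 and Ube2v2 have no row in the table. Ube2n matches 5 other genes of the annotation, Ube2n-ps1 among them, at 95% identity or more over at least 200 bases, so its count is uncertain. The same holds for 22 of the 66 members in all. Such a match to an annotated gene with no row in the table covered 63.1% of the transcript for Ube2h, 60.9% for Usp1 and 55.5% for Ube2l3. It covered 35.0% for Ube2e1, 33.7% for Usp33, 32.9% for Ube2q2, 32.6% for Ube2l6 and less for others, such as 17.9% for Ube2d2a. Ube2e1 also matches Nkiras1, which has a row, over 51.35% of its transcript.

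The enzymes of K48-linked chains and of the degradation of proteins from the endoplasmic reticulum included 6 members, of which 0 were called, 1 had an unadjusted p below 0.05 and 5 were below 0. Ube2k, which builds K48-linked chains, was at 30.4, 29.3, 29.0, 26.5 and 30.6 CPM in Tie1-CR libraries and at 31.5, 32.0, 33.7 and 33.1 CPM in Tie1-WT libraries. The groups did not overlap, with a log2 difference of -0.16 (SE 0.054, adjusted p = 0.118). Ube2g1, which extends chains for cullin-RING ligases, was at 75.7 to 91.0 CPM in Tie1-CR and 89.1 to 92.6 CPM in Tie1-WT libraries (adjusted p = 0.283). Ube2r2, a relative of Cdc34, averaged 62.7 ± 4.36 CPM in Tie1-CR and 65.8 ± 2.09 CPM in Tie1-WT libraries (adjusted p = 0.487). Ube2j1, anchored in the membrane of the endoplasmic reticulum, averaged 84.1 ± 6.31 CPM in Tie1-CR and 87.0 ± 3.32 CPM in Tie1-WT libraries (adjusted p = 0.642).

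Ube2a and Ube2b, the mammalian Rad6 enzymes that mark histone H2B and Pcna, stood beside Ube2s in the group of cell cycle and DNA damage conjugases. Ube2a was at 37.3 to 45.6 CPM in Tie1-CR and 38.7 to 45.5 CPM in Tie1-WT libraries (log2 difference -0.09, adjusted p = 0.504). Ube2b was at 75.8 to 93.3 CPM in Tie1-CR and 88.4 to 91.8 CPM in Tie1-WT libraries (log2 difference -0.11, adjusted p = 0.318). The Tie1-CR values spanned the Tie1-WT values for both. Ube2c, which starts the chains that Ube2s extends, has no row in the table.

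Of the 4 conjugases of ubiquitin-like proteins, 0 were called and 1 had an unadjusted p below 0.05. Ube2l6, which carries the interferon-induced modifier Isg15, was at 38.7, 29.2, 37.2, 31.6 and 34.2 CPM in Tie1-CR libraries and at 38.9, 37.2, 41.6 and 49.8 CPM in Tie1-WT libraries. The groups overlapped, with Tie1-CR library 1 above Tie1-WT library 2, and the log2 difference was -0.28 (SE 0.098, adjusted p = 0.118). Isg15 was at 15.9 to 26.5 CPM in Tie1-CR and 23.9 to 34.2 CPM in Tie1-WT libraries (log2 difference -0.44, adjusted p = 0.0915). Herc6, an Isg15 ligase in mouse, was at 17.7 to 26.0 CPM in Tie1-CR and 25.2 to 33.3 CPM in Tie1-WT libraries (log2 difference -0.39, adjusted p = 0.0725). A list of 17 interferon response genes included Isg15. The list summed to 1354 to 1876 CPM in Tie1-CR and 1954 to 2733 CPM in Tie1-WT libraries. It held 4 genes called lower and 0 higher, against 2.77% and 1.28% of all genes. Uba7, the E1 of Isg15, averaged 298 ± 34.6 CPM in Tie1-CR and 291 ± 38.2 CPM in Tie1-WT libraries (log2 difference 0.03, adjusted p = 0.872).

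The conjugases of Nedd8 were not called. Ube2m, which carries Nedd8 to cullins, averaged 91.7 ± 6.57 CPM in Tie1-CR and 90.9 ± 1.5 CPM in Tie1-WT libraries (log2 difference 0.01, 95% interval -0.11 to 0.13). Ube2f, the other conjugase of Nedd8, was at 21.8 to 29.3 CPM in Tie1-CR and 25.5 to 29.5 CPM in Tie1-WT libraries (log2 difference -0.13, adjusted p = 0.361).

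Among the 7 other conjugases 0 were called, also at an unadjusted p below 0.05, and 6 were below 0. Ube2h, the conjugase of the CTLH ligase complex, was at 111 to 127 CPM in Tie1-CR and 120 to 138 CPM in Tie1-WT libraries (log2 difference -0.13, adjusted p = 0.246). Ube2w, which places ubiquitin on the amino terminus of proteins, was at 22.2 to 30.4 CPM in Tie1-CR and 28.5 to 30.2 CPM in Tie1-WT libraries (adjusted p = 0.313). Ube2q1 averaged 87.2 ± 5.00 CPM in Tie1-CR and 92.9 ± 2.14 CPM in Tie1-WT libraries (adjusted p = 0.307). Ube2z, which is charged by Uba6, averaged 116 ± 6.73 CPM in Tie1-CR and 116 ± 5.27 CPM in Tie1-WT libraries (log2 difference -0.01, 95% interval -0.13 to 0.11).

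Of the 12 proteases of chromatin and DNA damage, 0 were called, 4 had an unadjusted p below 0.05 and 9 were below 0. Usp7, which stabilises Mdm2 and p53, was at 117 to 135 CPM in Tie1-CR and 130 to 146 CPM in Tie1-WT libraries (log2 difference -0.17, SE 0.054, adjusted p = 0.0992). Only Tie1-CR library 5, at 135 CPM, reached into the range of the Tie1-WT libraries. Usp45, which acts on the repair nuclease subunit Ercc1, was at 14.4 to 20.2 CPM in Tie1-CR and 18.0 to 23.8 CPM in Tie1-WT libraries (log2 difference -0.24, adjusted p = 0.194). Usp22, the protease of the SAGA coactivator, leaned the other way, at 175 to 198 CPM in Tie1-CR and 163 to 176 CPM in Tie1-WT libraries (log2 difference 0.13, SE 0.054, adjusted p = 0.184). Gmps, a metabolic enzyme that binds Usp7, was at 32.4 to 36.1 CPM in Tie1-CR and 36.4 to 39.7 CPM in Tie1-WT libraries (log2 difference -0.17, adjusted p = 0.0784).

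Neither protease of the proteasome and of free chains was called, also without adjustment. Usp14, which trims chains at the proteasome, was at 47.5 to 54.2 CPM in Tie1-CR and 50.2 to 55.3 CPM in Tie1-WT libraries (log2 difference -0.05, 95% interval -0.17 to 0.06). Its transcript shares sequence with the neighbouring gene Thoc1, so its count is uncertain. Usp5, which takes apart unanchored chains, averaged 116 ± 9.34 CPM in Tie1-CR and 116 ± 1.54 CPM in Tie1-WT libraries (log2 difference -0.01, 95% interval -0.14 to 0.12).

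The 13 genes grouped under membrane traffic, receptors and organelles held 0 calls, with 3 at an unadjusted p below 0.05, 7 below 0 and 6 above. Usp19, which exists in a form anchored in the endoplasmic reticulum, was at 304, 317, 319, 293 and 297 CPM in Tie1-CR libraries and at 278, 280, 273 and 269 CPM in Tie1-WT libraries. All Tie1-CR libraries were above all Tie1-WT libraries, with a log2 difference of 0.15 (SE 0.044, adjusted p = 0.0761). After the GC and length correction the difference of Usp19 was 0.095 (adjusted p = 0.27). Usp8, which deubiquitinates receptors at endosomes, was at 76.9, 76.9, 81.5, 69.0 and 81.4 CPM in Tie1-CR libraries and at 88.7, 85.1, 81.6 and 83.0 CPM in Tie1-WT libraries. The groups for Usp8 were next to each other without overlap (log2 difference -0.13, adjusted p = 0.185). Usp54 was at 29.9 to 33.2 CPM in Tie1-CR and 33.9 to 39.7 CPM in Tie1-WT libraries, with Tie1-WT library 1 far above the other 3 (log2 difference -0.14, adjusted p = 0.185). Usp4, which acts on the type I receptor of TGF-β, averaged 176 ± 7.85 CPM in Tie1-CR and 171 ± 2.16 CPM in Tie1-WT libraries (log2 difference 0.04, 95% interval -0.06 to 0.14).

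Among the 12 signalling and WD-repeat-partner proteases, Usp46 was the 1 call (8.33%, against 4.05% of all genes). Of the 12, 11 were below 0 (91.7%, against 58.5% of all genes), and 4 had an unadjusted p below 0.05. Usp15, which acts in TGF-β signalling, was at 57.5, 61.0, 63.9, 58.0 and 65.1 CPM in Tie1-CR libraries and at 74.9, 67.8, 68.0 and 67.6 CPM in Tie1-WT libraries. The groups did not overlap, with a log2 difference of -0.18 (SE 0.054, adjusted p = 0.0782). Usp37, which counters cyclin A turnover, was at 27.1 to 31.9 CPM in Tie1-CR and 31.9 to 34.6 CPM in Tie1-WT libraries, without overlap before rounding (log2 difference -0.17, adjusted p = 0.125). Usp25, which acts on Traf proteins in innate signalling, was at 113 to 138 CPM in Tie1-CR and 137 to 144 CPM in Tie1-WT libraries (log2 difference -0.15, adjusted p = 0.129). Usp9x, a large protease with many substrates, averaged 100.5 ± 12.2 CPM in Tie1-CR and 105 ± 9.03 CPM in Tie1-WT libraries (log2 difference -0.07, 95% interval -0.26 to 0.13).

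Of the 64 members that were not called, 57 had a 95% interval of the log2 difference within -0.32 to 0.32, which corresponds to 1.25-fold in either direction. Over all genes, 6742 of the 8901 not called had such an interval. Differences beyond 1.25-fold were therefore outside the interval for most members at this number of libraries. The widest intervals belonged to low or variable genes, such as Usp53 at 14.4 ± 3.30 CPM in Tie1-CR and 16.8 ± 1.81 CPM in Tie1-WT libraries (95% interval -0.53 to 0.07).

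**Figure D2:**
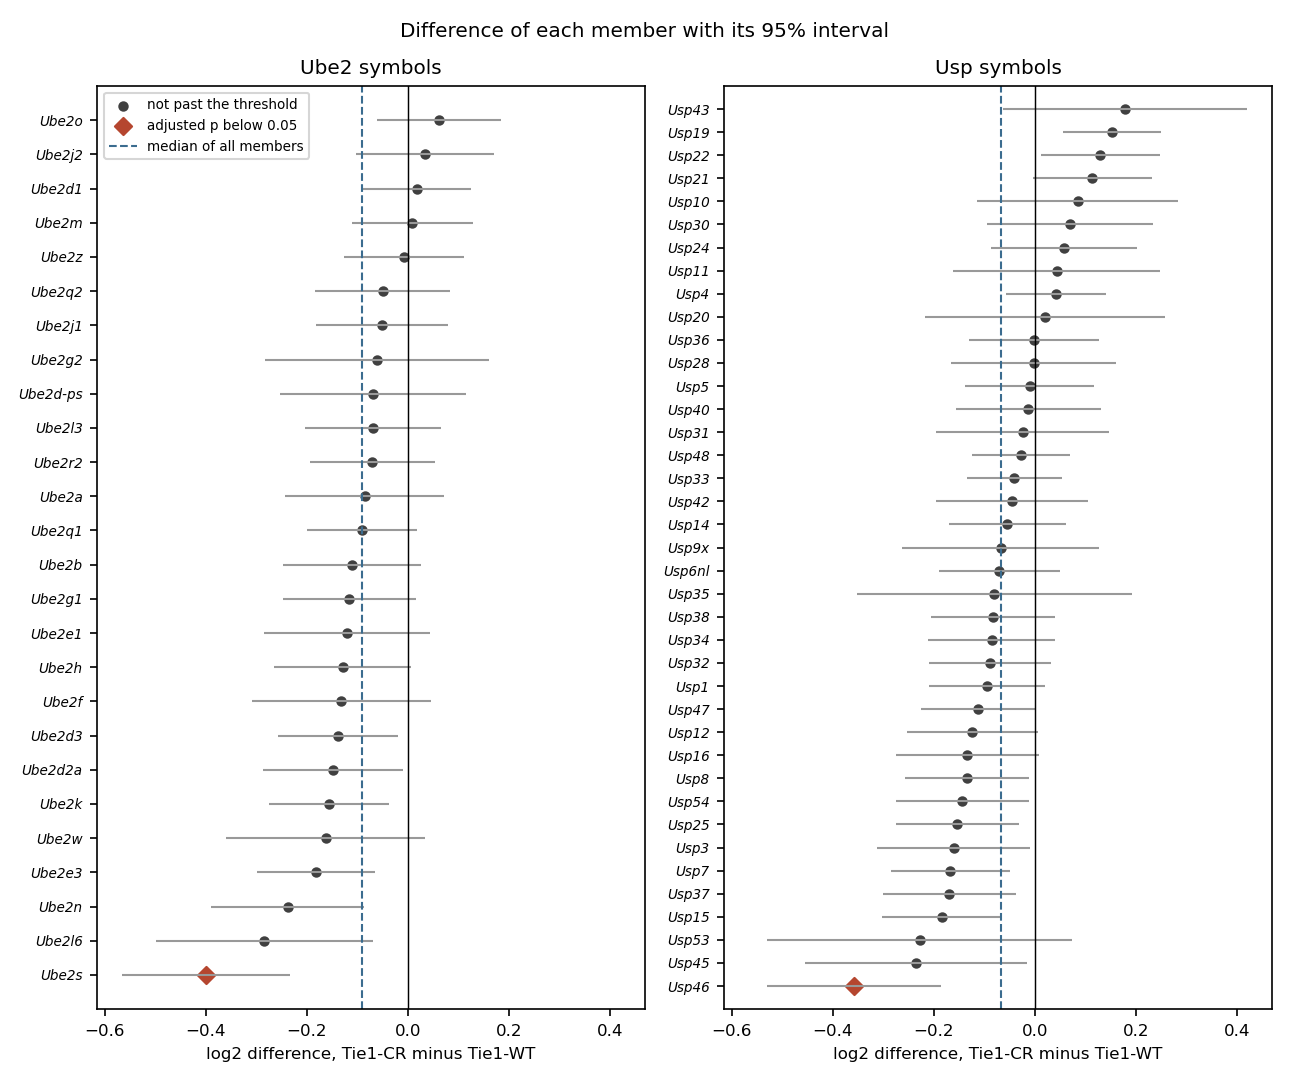
Difference of log2(CPM + 1), Tie1-CR (n = 5) minus Tie1-WT (n = 4), for the Ube2 and Usp members described here, with 95% intervals of the limma fit, diamonds for adjusted p below 0.05 and a dashed line at the median of all members of the family. Most points lie left of 0, with medians of -0.09 and -0.07, and 2 are called.

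As a whole the members lay a little lower in Tie1-CR libraries than the table did. Differences were below 0 for 51 of 66 members (77.3%), against 58.5% of all genes. The median log2 difference was -0.09 for Ube2 members (22 of 27 below 0), -0.07 for Usp members (29 of 39) and -0.03 for all genes. The summed CPM of the Ube2 members was 1515 ± 63.1 in Tie1-CR and 1604 ± 12.3 in Tie1-WT libraries (SD), and that of the Usp members was 2587 ± 74.1 in Tie1-CR and 2634 ± 28.6 in Tie1-WT libraries. The size depended on scaling. With TMM factors 68.2% of members and 50.4% of all genes were below 0, and with quantile normalization 65.2% and 49.2%. After correction for GC content and length the shares were 62.1% and 45.9%, with medians of -0.03 for Ube2 members, -0.02 for Usp members and 0.01 for all genes.

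Members had lower GC content than the table, with a median of 47.7% in the longest coding transcripts of Ube2 members and 46.9% for Usp members, against 50.2% for all genes with a value. Over all genes the median difference went with GC content, at -0.09, -0.06, -0.03, 0.01 and 0.06 log2 in 5 equal classes from lowest to highest GC. There were 20, 18, 15, 6 and 7 members in those classes. Within the classes the median differences of the members were -0.12, -0.08, -0.05, 0.05 and 0.01. The gap between the highest and lowest GC classes, measured from the Tie1-WT mean, was 0.17, 0.19, 0.05, 0.25 and 0.11 log2 in Tie1-CR libraries 1 to 5, and -0.06, 0.03, 0.03 and 0.02 in Tie1-WT libraries. Every Tie1-CR library lay above every Tie1-WT library in this measure, and its part in the differences of the members was tested only through the correction above. Ube2s, with 58.5% GC, stood against the trend, and Usp46, with 42.5% GC, lay in the direction of it.

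**Figure D3:**
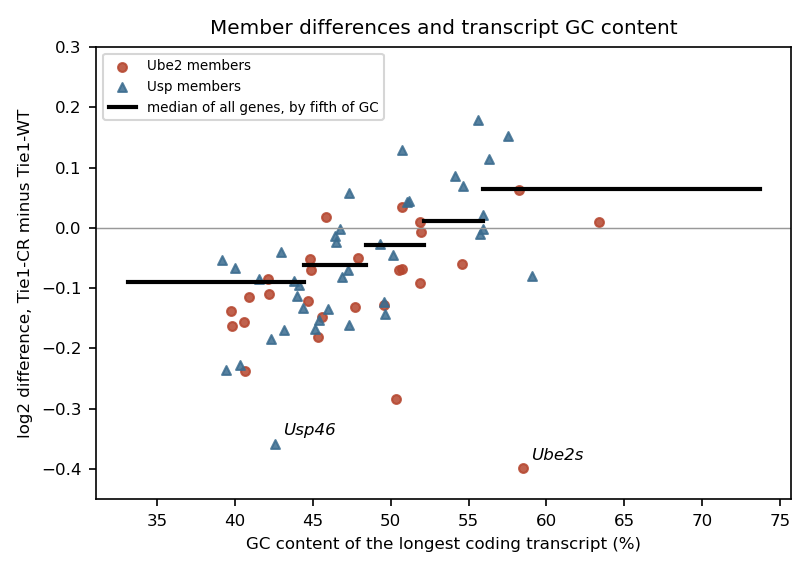
Difference of each member (Tie1-CR minus Tie1-WT, log2 scale) against the GC content of its longest coding transcript in percent, circles for the 27 Ube2 and triangles for the 39 Usp members, with black bars for the median of all genes in each of 5 equal GC classes. The bars climb through -0.09, -0.06, -0.03, 0.01 and 0.06, most members follow them, and Ube2s lies far below the bar of its class.

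The libraries of the Tie1-CR group did not carry the lower Ube2 values evenly. Measured from the Tie1-WT mean, the median deviation of the 27 Ube2 members was 0.00, -0.18, -0.13, -0.17 and -0.03 log2 in Tie1-CR libraries 1 to 5, so that libraries 1 and 5 were near the Tie1-WT level. For the 39 Usp members it was -0.12, -0.05, -0.04, -0.09 and -0.03. Libraries 2 and 4 were the lowest pair of the 5 Tie1-CR libraries for 16 of 27 Ube2 members (59.3%), for 5 of 39 Usp members (12.8%) and for 19.0% of all genes. This pattern was noticed in the data and carries no test. The same libraries had the fewest inferred reads of the group, 38208696 and 44346998, and the widest GC gaps, and the part of depth was not tested. Libraries 2 and 4 were picked for their low Ube2 values, so leaving them out raises the Ube2 median by the choice itself. Without them the median difference was -0.03 for Ube2 members, -0.06 for Usp members and -0.03 for all genes. Ube2s was still called then (log2 difference -0.48, adjusted p = 0.0126), and Usp46 was not (-0.30, adjusted p = 0.103).

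**Figure D4:**
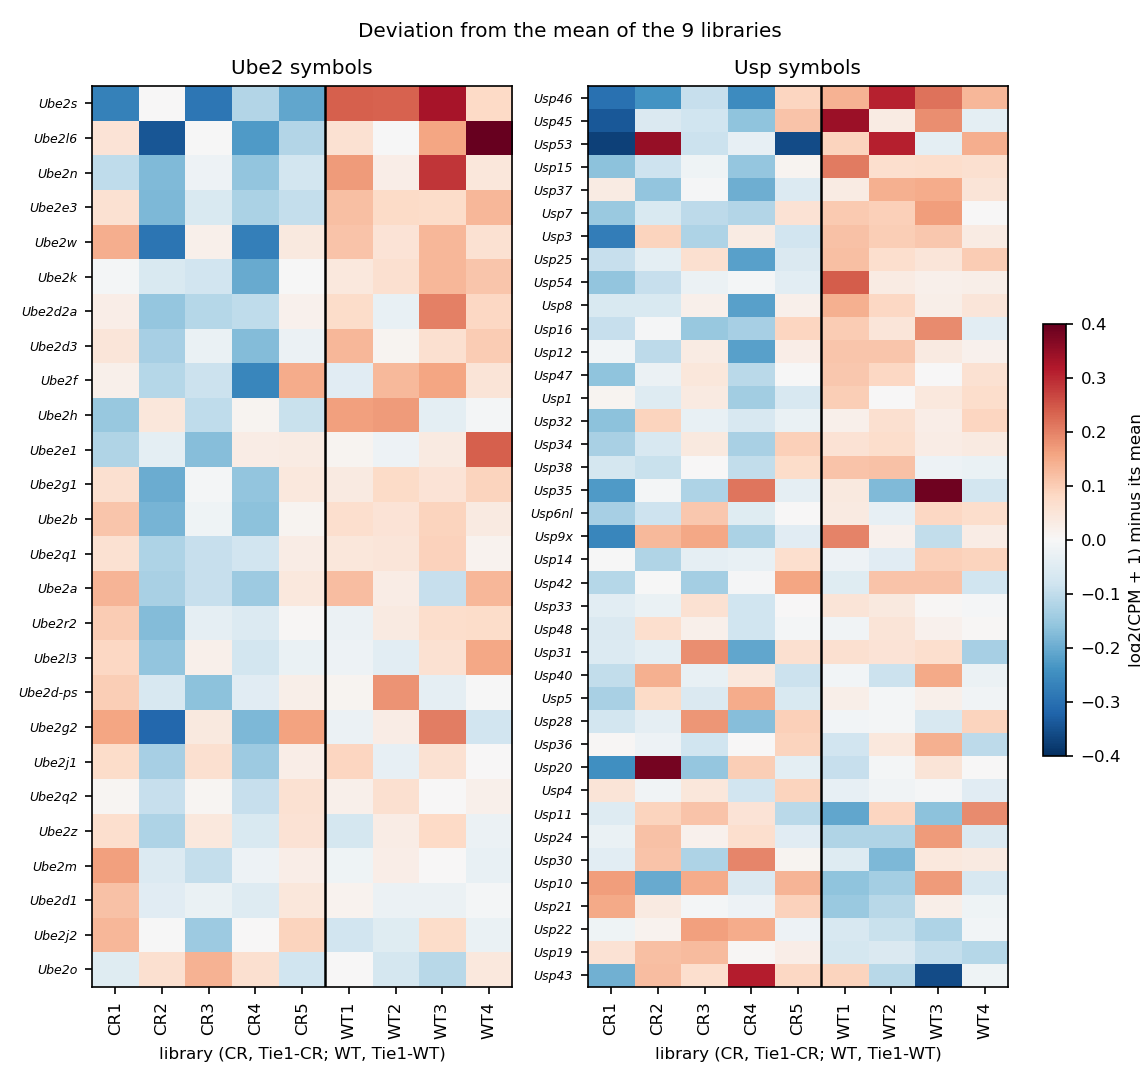
Deviation of log2(CPM + 1) from the mean of the 9 libraries for each member described here, in Tie1-CR libraries 1 to 5 left of the line and Tie1-WT libraries 1 to 4 right of it, with rows ordered by difference and colours limited to -0.4 and 0.4. In the Ube2 panel the columns of Tie1-CR libraries 2 and 4 are blue for most genes, and in the Usp panel they are not set apart in this way.

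Levels within the families were compared per length, as CPM per kilobase of the longest coding transcript, averaged over all libraries. Ube2m stood at 62.1, Usp19 at 61.0, Ube2b at 48.3, Usp4 at 47.5 and Ube2g2 at 41.9 CPM per kilobase, the highest of the members. Usp53 at 2.50, Usp35 at 2.51 and the axin protease Usp34 at 2.79 CPM per kilobase were the lowest. Among 85 symbols of the role groups, 20 have no row in the table, and the table lists only genes that exceed 10 CPM in at least 1 library, which leaves weaker genes out of reach. Ube2c, Ube2t, Ube2v1, Usp2, Usp13 and Usp39 are among those 20.

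The genes around the members were described from lists of the pathway. Beside the counts in these lists, the shares over all genes were 4.05% called, 22.3% at an unadjusted p below 0.05 and 58.5% below 0. The ubiquitin gene Ubb was lower in Tie1-CR libraries. It was at 276, 239, 228, 253 and 244 CPM in Tie1-CR libraries and at 293, 301, 291 and 293 CPM in Tie1-WT libraries. The groups did not overlap (log2 difference -0.25, SE 0.056, adjusted p = 0.0348). The call of Ubb was lost with TMM scaling (adjusted p = 0.0528) and without Tie1-CR library 2, 3, 4 or 5 or any Tie1-WT library (0.0581 to 0.107). Ubb is also known as a stress-responsive gene, and a list of 17 immediate early genes moved with the groups, with 11 called lower and 0 higher. Its sum was 12710 to 17880 CPM in Tie1-CR and 17220 to 27330 CPM in Tie1-WT libraries. Its part in the results was not tested.

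The upstream E1 enzymes held 0 calls among 9 genes (1 at an unadjusted p below 0.05), and Uba1, the main E1 of ubiquitin, averaged 253 ± 7.30 CPM in Tie1-CR and 253 ± 9.85 CPM in Tie1-WT libraries. The E1 with the smallest p was Atg7, which acts in autophagy (log2 difference -0.14, adjusted p = 0.156). All 8 ubiquitin-like modifier genes in the table were below 0 and 0 were called (6 at an unadjusted p below 0.05), with Sumo3 at 63.7 to 79.4 CPM in Tie1-CR and 78.9 to 87.5 CPM in Tie1-WT libraries (log2 difference -0.24, adjusted p = 0.0763). Of 6 conjugases outside the symbol rule, Aktip, an inactive E2 variant of vesicle traffic, was called, at 27.2 to 31.1 CPM in Tie1-CR and 32.8 to 34.7 CPM in Tie1-WT libraries (log2 difference -0.21, adjusted p = 0.0452). Its call was lost when any library except Tie1-CR library 5 was left out (adjusted p = 0.0623 to 0.113), with TMM scaling (0.0702), quantile normalization (0.0844) or robust empirical Bayes (0.0530), and after the GC and length correction (0.214).

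Deubiquitinases of the other families held 3 calls among 25 genes (12%, against 4.05% of all genes), 2 lower and 1 higher. Psmd14, the metalloprotease of the proteasome lid, was at 32.1 to 39.5 CPM in Tie1-CR and 41.7 to 45 CPM in Tie1-WT libraries (log2 difference -0.28, adjusted p = 0.0291). Cyld, which removes K63-linked and linear chains in NF-κB signalling, was at 31.1 to 37.0 CPM in Tie1-CR and 39.6 to 42.1 CPM in Tie1-WT libraries (log2 difference -0.25, adjusted p = 0.0372). Josd2, of the Josephin family, was higher, at 65.7, 63.2, 51.8, 59.8 and 55.6 CPM in Tie1-CR libraries and at 44.4, 44.2, 53.4 and 45.2 CPM in Tie1-WT libraries (log2 difference 0.33, adjusted p = 0.0415). Its groups overlapped, with Tie1-CR library 3 below Tie1-WT library 3. The call of Psmd14 was lost without Tie1-CR library 3 or 4 or any Tie1-WT library (adjusted p = 0.0524 to 0.0834) and after the GC and length correction (0.0666). That of Cyld was lost without Tie1-CR library 1, 4 or 5 or any Tie1-WT library (0.0522 to 0.115) and with TMM scaling (0.0582) or quantile normalization (0.0699). That of Josd2 was lost without Tie1-CR library 1, 2, 4 or 5 or Tie1-WT library 1, 2 or 4 (0.0545 to 0.135). By limma 0 of 27 HECT and RBR ligases, 0 of 12 cullins and their partners, 0 of 8 proteases of Sumo and Nedd8 and 0 of 17 named partners of the members were called, with 8, 4, 3 and 5 at an unadjusted p below 0.05 in that order. The smallest p among cullin partners was that of Skp1a, the adaptor of SCF ligases, at 96.9 to 115 CPM in Tie1-CR and 116 to 126 CPM in Tie1-WT libraries (log2 difference -0.21, adjusted p = 0.0636). Among the Sumo and Nedd8 proteases it was that of Senp2 (log2 difference -0.16, adjusted p = 0.129). A list of 13 clock genes, whose proteins are known to be turned over by ubiquitin ligases, held 0 calls and 7 genes at an unadjusted p below 0.05, with sums of 968 to 1588 CPM in Tie1-CR and 737 to 979 CPM in Tie1-WT libraries.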

How the data were processed

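RNA of mouse lung endothelial cells was extracted with a PicoPure kit and made into libraries with a SMARTer Ultra Low kit, per the labels' protocols. STAR 2.7 and the builds GRCm38.p6 and mm10 are named in the submitters' processing notes, while no source used here gives the counting tool, annotation, gene filter or use of strand. The authors deposited 1 table. The authors' CPM values, deposited under a name that says TPM, are counts divided by the library total: in each library they are multiples, within 0.01 reads, of 1 step that is the same for every gene. The log-scale test planned for TPM was applied to them unchanged. The table's 9277 genes all exceed 10 CPM in at least 1 library.

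Values were used as log2(CPM + 1) for genes with at least 1 CPM in at least 4 libraries (all of them) and fitted with limma 3.58.1 in R 4.3.3 (trended empirical Bayes, two-sided) with Benjamini-Hochberg adjustment over all genes and a threshold of 0.05. Lengths, GC content and positions came from GENCODE on GRCm38 (9048 genes, all 66 members), and promoters from RefSeq on GRCm38.p6. Figures used matplotlib 3.10.9 in Python 3.11.15. The symbol rule uses no values, but it was proposed, and the lists and tests were chosen, with earlier results of these data known. Named members were those past the threshold and, per role group, the 3 with the smallest p and the 2 with the highest mean. Of each pathway list, genes past the threshold or the 1 with the smallest p were named. Other genes were named for their link to a member, after their values were seen. On simulated data for this comparison over 9277 genes, 89% of genes changed by 0.5 log2 and 94% of those changed by 1 log2 were recovered, with 12 false calls among 195. No smaller size was simulated, while the differences of the members ran from -0.40 to 0.18 log2. Noise was drawn for each gene separately, without shifts shared by the genes of a library. The simulation therefore does not give the recovery or false calls for differences like those of the members. Alternatives covered pseudocount, filter, scaling, variance model, replicate block, GC content and length, and each library left out. Leaving out Tie1-CR libraries 2 and 4 together was added after seeing the data. Some genes that these rules select are counted in the groups but not reported here by name.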

Additional observations from a re-analysis of the deposited data

Results flagged for a closer look

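In 2 of 66 groups of values examined, over 33 named members and both genotypes, a single library stood apart from the others of its group by Dixon's criterion, and chance alone marks about 1 in 20 groups. Usp54 was at 39.7 CPM in Tie1-WT library 1, against 33.9 to 34.2 CPM in the other 3 Tie1-WT libraries. Usp15 was at 74.9 CPM in Tie1-WT library 1, against 67.6 to 68.0 CPM in the other 3. The gap was 0.952 of the range of the group for Usp54 and 0.945 for Usp15. Both genes had a higher value in that library than in any Tie1-CR library, as they also had in the other Tie1-WT libraries.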

How the results depend on the processing

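The count of members called higher was 0 under all alternatives run. The count called lower was 2, and it was 1 with the replicate block (Usp46, with Ube2s at adjusted p = 0.0826), 1 with the GC and length correction (Ube2s), 1 without Tie1-CR libraries 2 and 4, and 0 to 2 over single libraries left out (0 without Tie1-WT library 1, 2 or 3, and Ube2s and Ube2e3 without Tie1-CR library 1). Library weights gave 3, adding Ube2e3 (adjusted p = 0.0307). The median of Ube2 members ran from -0.109 to -0.070 over libraries left out, and that of Usp members from -0.079 to -0.034. The median of Usp members was -0.021 under quantile normalization and under the GC and length correction. Same-numbered libraries did not deviate together (correlations of -0.144, 0.00411, -0.0597 and 0.19, with 2 of 8 libraries closest to their own number), so the replicate block was not used for the main result. The cause of the lost calls was not tested.

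Over all genes, TMM gave 182 higher and 190 lower (51.1% lower) and quantile normalization 183 and 190 (50.9%), against 119 and 257 (68.4%). Calls in all numbered 376, against 661 with library weights, 183 with the block, and 60, 135 and 154 without Tie1-WT library 1, 2 or 3. It was 183 without Tie1-CR library 4. Of 33 named members under 19 alternatives, 590 values kept direction and side of the threshold, 21 changed sign, 11 lost and 2 gained the call. The 11 lost calls were all of Ube2s or Usp46, because the other named members had no call to lose.

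Signs changed only for small differences. Ube2z was 0.019 with TMM, 0.001 with quantile normalization, 0.025 with weights, 0.003 with GC and length and 0.053 without Tie1-CR libraries 2 and 4. Usp5 was 0.016 with TMM, 0.004 with quantile normalization and 0.004 with the block. With GC and length, Ube2j1 was 0.031, Ube2b 0.009, Ube2a 0.035, Ube2m -0.063, Usp14 0.047 and Usp9x 0.011. Without Tie1-CR libraries 2 and 4, Ube2j1 was 0.027. Over single libraries left out, Ube2m ran from -0.031 to 0.034, Usp5 from -0.048 to 0.022 and Ube2z from -0.032 to 0.023. The calls of Ubb, Aktip, Psmd14, Cyld and Josd2 were all lost with the block (adjusted p = 0.105, 0.122, 0.0927, 0.123 and 0.117) and without Tie1-WT library 1. Those of Aktip and Psmd14 were also lost with GC and length (0.214 and 0.0666), and those of Ubb, Aktip and Cyld with TMM (0.0528, 0.0702 and 0.0582). The planned count-based tests on recovered reads were not run.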
